A study of Drosophila melanogaster with 21 samples.

Results

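d38 is a form of the Drosophila splicing factor LS2 in which residues 62, 63 and 64 were changed to alanine (W62A, D63A and I64A). RNA from S2 cells that expressed d38 was compared with RNA from S2 cells that expressed wild-type LS2 (WT). The comparison uses 6 of the 21 libraries of the series, 3 labelled d38 and 3 labelled WT, chosen by the labels alone. S2 cells are a cultured fly line of embryonic, blood-cell-like origin. In both groups the LS2 gene was copper-inducible and had been integrated together with a hygromycin resistance gene used for selection, and both groups were kept in 500 µM copper sulfate for 53 h before polyadenylated RNA was taken. The series also holds 3 libraries from cells with GFP in place of LS2, grown with the same copper. Their values are given for reference, and comparisons of GFP with WT and of d38 with WT share the WT libraries. The labels do not say that a construct was integrated more than once, so the altered residues and the cell line that carries them cannot be told apart. The labels also do not say whether replicates came from separate cultures. Unless said otherwise, p-values use the spread between replicates pooled over all 21 libraries in 7 groups, which may be technical. A fit of 12 libraries uses those of GFP, WT, d38 and RRM2, another LS2 mutant (F285D and F287D). These groups share the same pattern of effective lengths, the transcript lengths used for TPM. The fit of all 21 libraries also holds groups outside that pattern. A fit of 6 uses only WT and d38.

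LS2 is related to U2AF, a protein pair that binds the end of an intron (the 3′ splice site) early in splicing. In flies the large subunit is U2af50, which contacts the pyrimidine-rich tract, and the small subunit is U2af38, which contacts the AG at the intron end. SF1 binds the branch point next to them. In the human proteins the large subunit holds the small one through a short stretch with a conserved tryptophan. The labels do not say whether residues 62 to 64 of LS2 form such a stretch. The series asked how specific mutations of LS2 alter its regulation of alternative splicing.

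The 6 libraries held 25319189 to 34670761 estimated counts. TMM scaling factors were 1.04 to 1.05 in d38 and 0.9797 to 0.9957 in WT, so they differed with the group, and 0 pairs of libraries held identical counts. The line was checked with 11 markers of S2 cells. Of these, 10 passed the filter on low counts. The phagocytic receptor NimC1 did not pass, at 0.0205 to 0.169 TPM (an abundance that corrects for transcript length and has the same sum in every library). The GATA factor srp was at 88.3 to 111 TPM and the peroxidasin Pxn at 205 to 301 TPM. Of 17 markers of neurons, muscle, fat body, follicle cells, germline and testis, 15 were below 1 TPM and 3 were at 0 in all 6 libraries. Their summed level was 4.06 to 5.36 TPM in WT and 6.02 to 6.90 TPM in d38, so it moved with the group. Its part in the results below was not tested.

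LS2 was first compared between the groups, since a difference in its amount would enter every other result. LS2 (FBgn0034834, chr2R:23210130-23211539, BDGP6 coordinates counted from 1 throughout) was at 6112, 6660 and 6070 TPM in WT and at 5940, 6168 and 6489 TPM in d38. The groups overlapped. The means were 6280 ± 329 TPM in WT and 6199 ± 276 TPM in d38 (SD, n = 3), and GFP cells held 2.30 ± 1.44 TPM. The difference on log2(TPM + 1) was -0.02, with an exact two-sided permutation p of 0.7, where 0.1 is the smallest p that 3 against 3 libraries can give. On CPM values, TMM-scaled counts relative to the library total, LS2 did not overlap, at 7235, 7555 and 7539 in WT and 6463, 6489 and 6764 in d38. There edgeR gave a log2 change of -0.18 (SE 0.16) with an adjusted p of 0.508. A fit of only the 6 libraries gave -0.17 with an adjusted p of 0.0337. The 3 changed residues themselves could not be checked from abundance tables.

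Splicing differed between d38 and WT in every class of event examined, and in both directions. An event is a choice between 2 forms built from the annotated exons, and its share is the summed TPM of transcripts with the first form over that of transcripts with either form. Of 7960 events tested, 359 passed an adjusted p of 0.05 with limma, which is 4.51%, in 271 genes. Among all events called, the median change was 13.5 percentage points, against 3.63 points over all events tested. Without d38 replicate 2 the count was 232, without d38 replicate 3 it was 212, without WT replicate 3 it was 220, and with only the 6 libraries fitted it was 110.

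Retained introns were called most often, at 101 of 1207 tested (8.37%), followed by cassette exons, exons that are either included or skipped, at 79 of 1327 (5.95%). Alternative 3′ splice sites were called in 74 of 1413 events (5.24%) and alternative last exons in 15 of 312 (4.81%). Alternative first exons reached 52 of 2032 (2.56%) and alternative 5′ splice sites 38 of 1669 (2.28%). The shares called were thus above the 4.51% of all events in 4 classes and below it in first exons and 5′ splice sites, a difference between classes that was not tested. Each class had calls in both directions, and the balance was not tested. Among called 3′ splice site events the site nearer to the exon before the intron was used more in d38 in 35 and less in 39. Introns were retained more in 46 and less in 55, and exons were included more in 40 and less in 39. The form nearer to the rest of the gene rose in 21 and fell in 31 first exon events. For last exons these counts were 8 and 7. The 5′ splice site that gives the shorter intron rose in 21 and fell in 17.

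**Figure D1:**
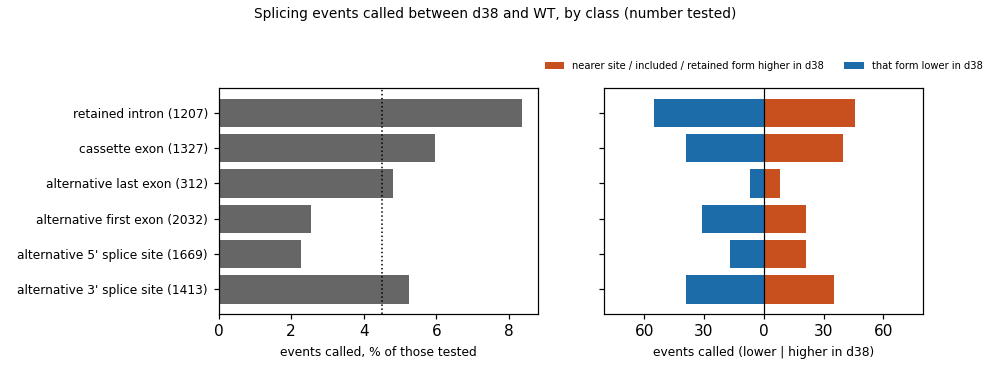
Events called between d38 and WT in 6 classes, with the number tested in brackets. The left panel gives the percent of tested events called, with a dotted line at 4.51% for all classes, and the right panel gives the number called in each direction (for first and last exons, the form nearer to the rest of the gene). Retained introns have the highest share, 8.37%, and each class has calls on both sides.

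The distance between the competing 3′ splice sites was examined next. Sites 1 to 10 nt apart were called in 14 of 516 events (2.71%), sites 11 to 50 nt apart in 31 of 477 (6.499%), sites 51 to 100 nt apart in 7 of 140 (5.0%) and sites further apart in 22 of 280 (7.86%). The median distance was 36.5 nt in called events and 18 nt in all tested. The distance was a multiple of 3 in 66.2% of called and 72.2% of all events, and the segment lay in the coding span in 63.5% and 63.8%. These are descriptions, with no test of the difference.

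In the 8 alternative 3′ splice site events with the largest change, WT and d38 did not overlap. In each event the segment given lies between the competing acceptors and is kept in the mRNA when the nearer site is used. In DIP1, which encodes a double-stranded RNA-binding protein, a coding segment of 45 nt (chrX:21628710-21628754, minus strand) was kept in 85.3%, 77.8% and 78.6% in WT. In d38 it was kept in 31.6%, 46.7% and 43.3%, a fall from 80.6 ± 4.13% to 40.5 ± 7.93% (SD, n = 3; adjusted p = 0.00565). The GFP libraries spread widely, at 24.5%, 32.3% and 67.8%. This event compares only DIP1-RD with DIP1-RC. DIP1-RG, outside the event, uses the same nearer acceptor after another intron. It held 10.3 ± 1.63% of the gene's TPM in WT and 28.3 ± 4.56% in d38. The fall is thus that of DIP1-RD against DIP1-RC, not of the segment over all DIP1 transcripts.

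In Atg16, a component of the autophagy conjugation machinery, a coding segment of 24 nt (chr3R:29832349-29832372, minus strand) was kept in 71.7%, 74.8% and 69.7% in WT. In d38 it was kept in 43.8%, 41.2% and 47.2% (adjusted p = 0.00952). In sw, the intermediate chain of cytoplasmic dynein, another coding segment of 24 nt (chrX:20230594-20230617, minus strand) was kept in 57.0%, 61.8% and 50.1% in WT and in 32.8%, 29.0% and 37.9% in d38 (adjusted p = 0.0273). Both segments were thus kept less in every d38 library than in any WT library. GFP cells held 40.03 ± 7.43% for Atg16 and 26.9 ± 4.90% for sw. The call for sw was lost when d38 replicate 1, d38 replicate 2, WT replicate 1 or WT replicate 2 was left out, with adjusted p between 0.0743 and 0.112, or when only the 6 libraries were fitted, at 0.0871.

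B52 encodes an SR protein, a family that binds exons and promotes their splicing. Its event had the smallest spread among the 8. A coding segment of 15 nt (chr3R:13662955-13662969, plus strand) was kept in 27.1%, 27.0% and 28.4% in WT and in 7.14%, 7.05% and 5.25% in d38. The means were 27.5 ± 0.794% and 6.48 ± 1.07% (SD, n = 3; adjusted p = 2.06e-06), and GFP cells held 5.15 ± 0.654%. The lowest WT library lay far above the highest d38 library.

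In CG6928 a coding segment of 122 nt (chr3L:12007494-12007615, plus strand), which is not a multiple of 3, was kept in 53.3%, 51.8% and 47.3% in WT. In d38 it was kept in 20.97%, 16.1% and 14.5% (adjusted p = 0.000104), and in GFP cells in 3.60 ± 1.38%. In CG3662 a segment of 28 nt in the 3′ UTR (chr2L:824191-824218, plus strand) fell from 55.4 ± 4.64% to 30.6 ± 1.89% (adjusted p = 0.00095), against 20.6 ± 2.81% in GFP cells. In both genes all d38 libraries lay below all WT libraries. CG3662 overlaps CG3862 on the opposite strand, and the strand setting of the libraries is not given, so reads from the pair cannot be told apart.

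The nearer site rose in the 2 other events. In CG30460 the segment of 1542 nt (chr2R:17068216-17069757, minus strand) was kept in 64.2%, 58.0% and 59.4% in WT and in 100%, 97.0% and 100% in d38 (adjusted p = 0.00551), with 95.2 ± 8.31% in GFP cells. CG30460 overlaps Mov10 on the opposite strand. In Nipsnap, a member of a family of mitochondrial proteins, a 5′ UTR segment of 41 nt (chrX:16073101-16073141, minus strand) rose from 33.2 ± 6.86% to 63.5 ± 5.78%, with 60.7 ± 5.98% in GFP cells. Its adjusted p was 0.0225, but the call was lost without d38 replicate 2, d38 replicate 3, WT replicate 2 or WT replicate 3, at 0.0508 to 0.113, and with only the 6 libraries fitted, at 0.0741.

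Introns were retained less in d38 in 1 of the 4 events with the largest change and more in the 3 others. In Vha55, a subunit of the proton pump of lysosomes and other compartments, a 78 nt intron of the 5′ UTR (chr3R:12627562-12627639, minus strand) was retained in 93.5%, 88.1% and 92.8% in WT. In d38 it was retained in 55.2%, 39.5% and 32.4%, a fall of the mean from 91.5 ± 2.92% to 42.4 ± 11.7% (adjusted p = 0.00124), with 32.7 ± 11.7% in GFP cells. The d38 libraries spread widely and still lay below all WT libraries.

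In CG8372 a 74 nt intron that crosses the start of the coding span (chr2L:8212693-8212766, minus strand) was retained in 25.1%, 29.4% and 21.2% in WT and in 60.6%, 63.9% and 62.6% in d38 (adjusted p = 0.00112). The transcript that retains it has a coding sequence of 588 nt and the one that removes it 534 nt. In Nipsnap a 78 nt intron of the 5′ UTR (chrX:16073432-16073509, minus strand) was retained in 82.9%, 49.8% and 56.0% in WT and in 100%, 100% and 99.6% in d38 (adjusted p = 2.08e-05). This event and the Nipsnap 3′ splice site event are built from the same transcripts and are not independent. In GABPI a 94 nt intron of the 5′ UTR (chr2L:3030576-3030669, plus strand) rose from 46.8 ± 2.60% to 80.5 ± 3.42% (adjusted p = 0.00533). In these 3 genes every d38 library lay above every WT library. GFP cells held 56.3 ± 6.94% for CG8372, 93.4 ± 4.59% for the Nipsnap intron and 62.5 ± 10.1% for GABPI, which overlaps CG17219 on the same strand.

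Among cassette exons the largest change was again in DIP1. An exon of 945 nt (chrX:21628848-21629792, minus strand) next to its alternative 3′ splice site was included in 14.3%, 19.0% and 14.1% in WT and in 60.1%, 53.1% and 61.5% in d38 (adjusted p = 6.39e-07). Its mean rose from 15.8 ± 2.75% to 58.2 ± 4.47%, and GFP cells held 79.0 ± 2.03%. The d38 libraries thus lay between the WT and the GFP libraries, without touching either. This event compares only DIP1-RG with DIP1-RD. DIP1-RC, outside the event, also skips the exon. It held 13.2 ± 2.86% of the gene's TPM in WT, 29.9 ± 4.27% in d38 and 18.0 ± 12.2% in GFP cells. The shares given are thus not those of the exon over all DIP1 transcripts. Both DIP1 events share the transcript DIP1-RD and are not independent.

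In mtd a 344 nt exon of the 5′ UTR (chr3R:5307434-5307777, minus strand) rose from 41.7 ± 11.1% to 80.9 ± 4.57% (adjusted p = 0.00638), with 83.6 ± 2.99% in GFP cells. In Usp2, a deubiquitinating enzyme, an 873 nt exon of the 5′ UTR (chrX:22462400-22463272, plus strand) was included in 59.8%, 54.6% and 61.1% in WT and in 21.1%, 25.8% and 24.5% in d38 (adjusted p = 9.97e-05), with 18.9 ± 4.67% in GFP cells. Usp2 overlaps CG14613 on the opposite strand. In Fer1HCH, the heavy chain of ferritin, the iron storage protein, a 526 nt exon (chr3R:30386884-30387409, minus strand) was included in 21.2 ± 2.59% in WT and 54.7 ± 8.72% in d38 (adjusted p = 0.0154). GFP cells held 43.1 ± 15.3%. The event compares only Fer1HCH-RJ with Fer1HCH-RF and Fer1HCH-RG, at a mean of 628 counts, in a gene at 707 TPM. Fer1HCH overlaps Fer2LCH on the opposite strand. The call for Fer1HCH was lost without d38 replicate 2, d38 replicate 3, WT replicate 1 or WT replicate 3, at 0.053 to 0.0741. With only the 6 libraries fitted the calls of mtd and Fer1HCH were lost, at 0.0588 and 0.0505.

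**Figure D2:**
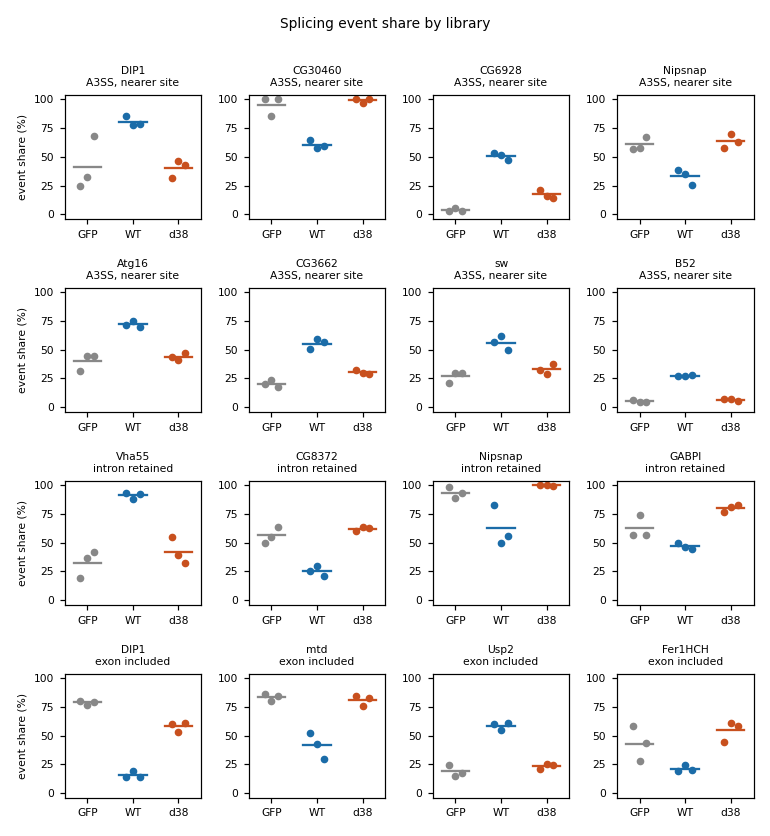
Share of the first form (%, vertical axis) in each library of GFP, WT and d38 cells, for the 8 alternative 3′ splice sites, 4 retained introns and 4 cassette exons named in the text. Points are libraries and lines are group means (n = 3). The WT and d38 points are separate in every panel because the events were chosen for it, for example 27.5% against 6.48% in B52.

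Alternative 5′ splice sites, first exons and last exons changed in fewer events. At 5′ splice sites, the donor that gives the shorter intron fell in Naprt, an enzyme of NAD synthesis, from 78.4 ± 1.45% to 53.6 ± 7.04% (adjusted p = 0.013). It rose in Trl, which encodes the GAGA factor, from 53.0 ± 5.45% to 77.4 ± 1.60% (adjusted p = 0.00234). It also rose in CCT3, a chaperonin subunit, from 50.01 ± 5.96% to 73.9 ± 8.68% (adjusted p = 0.0321) and in CkIIbeta, the regulatory subunit of casein kinase II, from 22.2 ± 3.75% to 45.1 ± 6.27% (adjusted p = 0.0066). Groups did not overlap in these 4 genes, and Trl overlaps Tsen34 on the same strand. The Naprt call was lost without d38 replicate 1 or d38 replicate 2 (adjusted p = 0.0515 and 0.0664), and the CCT3 call without d38 replicate 1, d38 replicate 2, WT replicate 1 or WT replicate 2 (0.0834 to 0.141). With only the 6 libraries fitted the calls of Naprt, Trl, CCT3 and CkIIbeta were lost, at 0.0582, 0.0502, 0.154 and 0.0785.

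A first exon marks where transcription starts, and the share given is that of the start nearer to the rest of the gene. It rose in Ank, the cytoskeletal adaptor ankyrin, from 41.1 ± 6.20% to 71.7 ± 4.78% (adjusted p = 0.00113). It fell in promL, a prominin-like membrane protein, from 71.4 ± 4.995% to 43.0 ± 4.30% (adjusted p = 0.00618) and in CkIIbeta from 70.1 ± 4.45% to 42.2 ± 7.84% (adjusted p = 0.00149). It also fell in RpL28, a protein of the large ribosomal subunit, from 83.0 ± 2.23% to 59.1 ± 4.86% (adjusted p = 0.00112). The RpL28 event compares only RpL28-RD with RpL28-RB, at a mean of 616 counts against 66220 for the gene. RpL28-RA, outside the event, held 94.5 ± 0.438% of the gene's TPM in WT. The 2 CkIIbeta events share the transcript CkIIbeta-RD, and RpL28 overlaps nSMase on the opposite strand. The Ank, promL and CkIIbeta calls were lost with only the 6 libraries fitted, at 0.0562, 0.056 and 0.0785.

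Of the last exons, that of eIF4EHP, a cap-binding protein that represses translation, changed from 18.6%, 19.1% and 19.5% in WT to 2.29%, 0.478% and 0.824% in d38 for the nearer end (adjusted p = 9.57e-06). GFP cells held 0.921 ± 0.570%. The nearer last exon also fell in Pax, the adhesion protein paxillin, from 20.5 ± 2.61% to 6.97 ± 0.414% (adjusted p = 3.39e-05). It rose in CG12236 from 33.0 ± 1.20% to 62.3 ± 3.63% (adjusted p = 9.57e-06) and in Atat, an acetyltransferase of alpha-tubulin, from 65.1 ± 2.55% to 83.0 ± 0.484% (adjusted p = 0.000926). In all 4 genes the libraries of one group lay apart from those of the other. Pax, CG12236 and Atat overlap Alp12, Shmt and Cpsf5 on the opposite strand, and eIF4EHP overlaps Syx1A on the same strand.

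Isoform usage was then tested for whole genes, without sorting changes into classes. Of 4455 genes tested, 369 changed (8.28%) with limma on isoform shares, and 239 of these (5.36%) were also called by edgeR's F test, which by itself called 441 of 4501 (9.80%). On simulated counts 31.8% of the F test's calls and 6.72% of limma's calls were false, and limma recovered 62.5% of the changed genes. In called genes the largest change of an isoform had a median of 11.5 points, against 4.59 points over all tested genes. It exceeded 10 points in 207 genes and 20 points in 59. By mean share, a different isoform led in WT and d38 in 57 of the 369 (15.4%), against 412 of all tested genes (9.25%). The count was 212 without d38 replicate 3, 216 without WT replicate 3, 200 with only the 6 libraries fitted, and 141 with edgeR's Simes test.

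Isoforms of foxo and Nipsnap that held a mean of over 34% of the gene's output in WT were close to absent in d38. foxo encodes the transcription factor opposed by insulin signalling. Its isoform foxo-RG held 34.2%, 37.7% and 30.2% of the gene's TPM in WT and was listed at 0 in all 3 d38 libraries (adjusted p = 0.0006). GFP cells held 0.0311 ± 0.0536% and RRM2 cells 0.466 ± 0.661%. foxo-RF rose by 29.7 points, and the pair has the same coding sequence of 1866 nt. The pair differs in where transcription starts (chr3R:14057919 for foxo-RG and 14056945 for foxo-RF). No intron was found to differ within the pair, so the shares rest on coverage near the start and not on a splice junction. Nipsnap-RC held 14.5%, 47.3% and 41.4% in WT and at most 0.384% in d38 (adjusted p = 4.76e-05). It was at 5.84 ± 3.84% in GFP cells and 0.62 ± 1.07% in RRM2 cells. The Nipsnap events above rest on the same transcripts.

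In the other direction, isoforms of Nup154 and CG17698 that were near 0 in WT rose in d38. Nup154-RA, from a gene of the nuclear pore, rose from 0.704%, 3.22% and 0% to 28.7%, 31.9% and 37.5% (adjusted p = 0.000538), with 2.86 ± 4.95% in GFP cells. It ends at chr2L:11009872, while Nup154-RD, which fell by 31.1 points, ends at 11010921, and both encode the same 4095 nt coding sequence. No intron was found to differ here either, so the shares rest on coverage near the end. CG17698-RD rose from 1.46 ± 2.52% to 34.3 ± 9.05% (adjusted p = 0.000881) and has a coding sequence of 2028 nt, against 1098 nt in CG17698-RA, which fell by 24.1 points. In both genes all d38 libraries lay above all WT and all GFP libraries. RRM2 cells held 21.3 ± 8.13% of Nup154-RA and 6.84 ± 2.90% of CG17698-RD. The CG17698 call was lost with only the 6 libraries fitted, at an adjusted p of 0.0694.

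Cdk2-RA, an isoform of a cyclin-dependent kinase of the cell cycle, was at or near 0% in WT and at 12.9%, 17.8% and 59.0% in d38 (adjusted p = 0.0103). The last of these libraries, d38 replicate 3, stood apart. Without it the rise was 15.4 points in place of 29.9, with an adjusted p of 0.0621, and the call was also lost with only the 6 libraries fitted (0.0694) or a pseudocount of 0.05 (0.0913). Cdk2-RA differs from the isoform that fell, Cdk2-RB, by a further 75 nt intron (chr3R:20737185-20737259), and both carry the same 942 nt coding sequence. For Cdk2-RA, GFP cells held 21.9 ± 9.53% and RRM2 cells 26.4 ± 14.6%.

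In CG8372, DIP1, Patj and CG12236, as in Sirup, Nipsnap and CG6928, the isoform that led in WT by mean share gave way to another. The WT lead was not clear in CG6928 and Nipsnap. CG6928-RD held 44.3% and CG6928-RB 43.7%, and CG6928-RB led in WT replicate 3. In WT replicate 1 Nipsnap-RC was at 14.5%, below Nipsnap-RB at 37.45% and Nipsnap-RA at 33.0%. CG8372-RA fell from 74.8 ± 4.11% to 37.6 ± 1.69% (adjusted p = 0.000632), which is the retained intron described above. DIP1-RD fell from 57.7%, 51.8% and 55.0% to 16.1%, 24.2% and 20.8% (adjusted p = 1.92e-05), with 9.46 ± 1.47% in GFP cells. Patj-RA, from a gene of the cell polarity machinery, fell from 68.6 ± 1.73% to 38.7 ± 1.65% (adjusted p = 8.82e-05). CG12236-RA fell from 66.9 ± 1.20% to 37.7 ± 3.63% (adjusted p = 1.87e-06), which is the last exon change described above. The Patj isoforms Patj-RA and Patj-RC, which rose by 22.9 points, differ in an intron of 58 nt (chr3L:1798924-1798981) against one of 56 nt (chr3L:1798954-1799009), upstream of the same 2613 nt coding sequence. With edgeR's Simes test the calls of CG8372, DIP1, Patj and CG12236 were lost, at adjusted p of 0.18, 0.203, 0.154 and 0.561.

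CG6928-RB rose from 36.4%, 45.0% and 49.7% to 79.0%, 74.8% and 77.7% (adjusted p = 0.000477), with 84.0 ± 4.23% in GFP cells. The CG6928 isoforms are those of its 3′ splice site event above. Sirup-RC, from a gene for an assembly factor of succinate dehydrogenase, rose from 37.2 ± 2.16% to 71.5 ± 4.01%, with 20.4 ± 9.21% in GFP cells, so that WT lay between GFP and d38. mRpS6-RA, from a gene of the mitochondrial ribosome, fell from 38.2 ± 5.95% to 5.07 ± 5.10%, with 65.5 ± 13.3% in GFP cells, and there too WT lay in between. The Sirup call (adjusted p = 0.0256) was lost when any 1 of the 6 libraries was left out, at 0.0565 to 0.0966, and the mRpS6 call (0.0115) without d38 replicate 3, at 0.0589, or with only the 6 libraries fitted, at 0.0973. The CG6928 call was lost with edgeR's Simes test, at 0.791. Sirup-RC starts at chr2L:7998869 and Sirup-RA, which fell, at 7998946, and both encode the same 354 nt coding sequence. As in foxo and Nup154, no intron was found to differ within the pair. Sirup, Nup154, Patj, Cdk2 and CG12236 overlap a gene on the opposite strand.

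**Figure D3:**
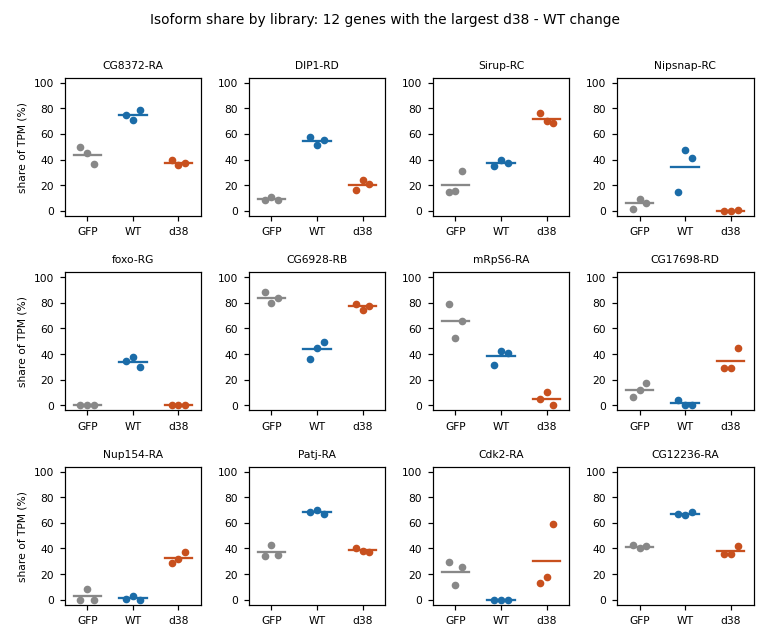
Share of the gene's TPM (%, vertical axis) held by 1 isoform of each of the 12 named genes, in each library of GFP, WT and d38 cells. Points are libraries and lines are group means (n = 3). foxo-RG is at 0 in the 3 d38 libraries, and d38 replicate 3 stands apart in Cdk2-RA at 59.0%.

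Splicing factors were themselves among the genes with altered isoforms. Of the 8 genes for 3′ splice site recognition and the U2 particle with more than 1 tested isoform, 4 were called by limma, against 8.28% of all genes tested for usage. The first was SF1, the branch point protein: SF1-RA fell from 88.2 ± 0.918% to 80.1 ± 1.52%. In Sf3b3, a subunit of the U2 particle, Sf3b3-RC rose from 29.5 ± 2.20% to 40.9 ± 0.586%. In Caper, a relative of U2af50, Caper-RA fell from 53.6%, 62.2% and 57.7% to 36.1%, 39.96% and 36.1%. Caper overlaps milt on the same strand, which had 29.2 TPM against its own 53.8 TPM. In hfp, the fly PUF60, hfp-RH rose from 8.47 ± 1.35% to 18.2 ± 2.09%. SF1 and hfp were not called by edgeR's F test, at adjusted p of 0.206 and 0.334.

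Of 11 genes for SR proteins and their kinases, 2 were called, among them B52, against the same 8.28%. B52-RA rose from 60.1%, 61.6% and 60.9% to 78.6%, 77.3% and 78.2% (limma adjusted p = 5.73e-05), with 85.2 ± 0.694% in GFP cells. Of 26 hnRNP and related regulators, 6 were called, namely Hrb98DE, Hrb87F, Hrb27C, sqd, Rox8 and Psi, again against 8.28%. Psi, which represses splicing of the P element in somatic cells, had the largest of these changes. Psi-RB rose from 0.0474%, 1.70% and 6.01% to 28.7%, 30.01% and 33.7% (limma adjusted p = 0.000382), with 17.9 ± 3.92% in GFP cells. Hrb98DE-RE fell from 37.8 ± 2.68% to 26.9 ± 0.412%. Hrb87F, sqd and Rox8 were not called by edgeR's F test.

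Changes in isoforms and in total expression fell partly on the same genes. Of the 369 genes with altered usage, 88 (23.8%) also changed in expression, and these are 10.6% of the 828 expression-changed genes that could be tested for usage. Of all genes tested for both, 18.6% changed in expression.

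Gene expression differed in 1428 of 8750 genes tested (16.3%) with edgeR's quasi-likelihood test, 671 higher in d38 (7.67%) and 757 lower (8.65%). Most changes were small. The median size of a called change was 0.39 on the log2 scale, and 78 genes were over 2-fold higher and 101 over 2-fold lower. The split of directions depends on the scale. On TPM with no centring the median log2 change of all genes was 0.14, against -0.01 with edgeR. There limma called 2514 genes higher and 303 lower, and after centring on the median gene 628 and 877. Without d38 replicate 3 edgeR called 874 genes.

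The expression changes were related to gene length. With the genes in 5 classes of equal size by length, from the shortest to the longest, the median log2 change was -0.09, -0.05, -0.02, 0.02 and 0.10. In the shortest class 65 genes rose and 231 fell, and in the longest 255 rose and 91 fell. With the trend on length removed, an alternative added after the data were seen, the shortest class had 134 higher and 184 lower and the longest 176 and 216, and 1588 genes were called in all.

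Among the genes named for their size of change, the largest falls exceeded the largest rises. The lipase gene mag was at 6.29, 6.002 and 7.35 CPM in WT and at 0.622, 0.557 and 0.690 CPM in d38, a log2 change of -3.39 (SE 0.25, edgeR adjusted p = 1.28e-08). GFP cells held 0.0611 ± 0.0812 CPM. atk, a leucine-rich repeat protein whose annotated span (chr3L:20454690-20464862) contains mag (chr3L:20460683-20462274), fell from 13.8 ± 2.94 to 4.56 ± 0.574 CPM. CG2901 (chrX:3828197-3831546) fell from 15.2, 14.9 and 13.1 CPM to 1.11, 1.58 and 2.07 CPM, a log2 change of -3.19 (SE 0.18, adjusted p = 6.61e-10), and GFP cells were at 1.42 ± 0.221 CPM.

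The cytochrome P450 gene Cyp6d2 (chr2R:22652573-22654530) was at 45.4, 49.1 and 47.9 CPM in WT and 16.7, 15.7 and 15.2 CPM in d38 (log2 change -1.58, SE 0.07, adjusted p = 2.98e-11), but at only 0.152 ± 0.0383 CPM in GFP cells. The d38 cells thus held a level apart from both other groups. The mucin Muc68Ca showed the same order, at 33.0 ± 5.56 CPM in WT, 9.25 ± 0.789 in d38 and 2.79 ± 0.165 in GFP cells. Nos (chr2L:10804274-10837511), the nitric oxide synthase, did not. It was at 5.22, 6.63 and 5.09 CPM in WT and 1.21, 1.67 and 1.19 CPM in d38 (log2 change -2.04, adjusted p = 6.37e-08), against 4.24 ± 0.194 CPM in GFP cells, so d38 was below both. The same held for CG33462, at 23.0 ± 1.41 CPM in WT, 8.80 ± 1.02 in d38 and 13.5 ± 0.652 in GFP cells. CG15082 fell from 5.64 ± 0.561 to 2.11 ± 0.169 CPM.

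Among the genes that rose, Itpr (chr3R:5517117-5539411), the calcium channel opened by inositol trisphosphate, was at 6.23, 9.48 and 5.66 CPM in WT and 14.2, 16.7 and 18.1 CPM in d38 (log2 change 1.20, SE 0.15, adjusted p = 1.01e-05), and at 19.3 ± 1.15 CPM in GFP cells. The folate enzyme gene pug rose from 8.64 ± 0.353 to 17.3 ± 1.01 CPM, with 17.4 ± 1.41 in GFP cells. pug shares exon sequence with CG14683 on the same strand, which had 59.3 TPM against its own 4.70 TPM. The potassium channel KCNQ rose from 7.48 ± 0.407 CPM in WT to 16.18, 15.37 and 16.45 CPM in d38, with 11.8 ± 0.724 in GFP cells. CG3635 rose from 2.54 ± 0.310 to 5.53 ± 0.270 CPM, with 3.835 ± 0.315 in GFP cells. CG1607 rose from 2.67 ± 0.685 to 5.83 ± 0.754 CPM, with 6.10 ± 0.384 in GFP cells. The transcription factor gsb-n rose from 2.60 ± 0.461 to 5.50 ± 0.401 CPM, with 4.635 ± 0.836 in GFP cells. KCNQ overlaps CG18011 on the opposite strand.

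In MFS3, bbg and Ldh, as in KCNQ and CG3635, all d38 libraries lay above all WT and all GFP libraries. The transporter gene MFS3 (chr2L:1143201-1147395) had the largest rise under the naming rule, from 1.87, 2.39 and 1.98 CPM to 5.53, 5.07 and 6.36 CPM (log2 change 1.44, SE 0.24, adjusted p = 0.000314). The scaffold gene bbg rose from 2.82 ± 0.556 to 6.91 ± 0.0714 CPM, with 1.77 ± 0.198 CPM in GFP cells. The lactate dehydrogenase gene Ldh rose from 11.1 ± 0.428 to 23.0 ± 0.613 CPM, against 16.1 ± 5.16 CPM in GFP cells. In each of these 3 genes the WT and d38 libraries did not overlap.

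**Figure D4:**
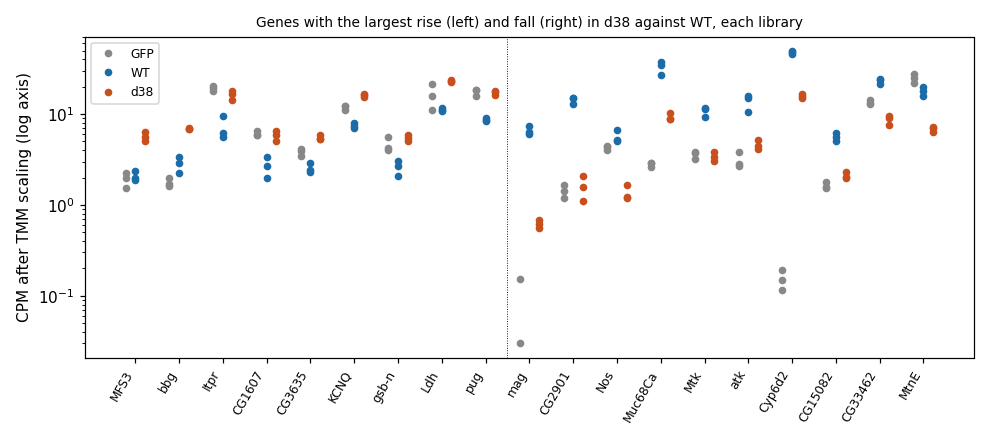
CPM after TMM scaling (log axis) of genes with the largest rise (left, 9 drawn) and fall (right, 10 drawn) in d38 against WT, each point 1 library of GFP, WT or d38 cells. GFP replicate 3 is at 0 for mag and is not drawn. Cyp6d2 lies near 47.5 CPM in WT, 15.9 in d38 and 0.152 in GFP cells.

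Of the partners of the 3′ splice site, U2af50 rose slightly and SF1 fell. U2af50 was at 80.2, 79.9 and 86.3 CPM in WT and 97.1, 97.5 and 99.0 CPM in d38 (log2 change 0.25, SE 0.06, edgeR adjusted p = 0.00498). SF1 was at 154, 163 and 164 CPM in WT and 122, 126 and 121 CPM in d38 (log2 change -0.38, SE 0.05, adjusted p = 3.45e-05). U2af38 was at 85.7 ± 5.33 CPM in WT and 84.0 ± 2.74 CPM in d38 (log2 change -0.03, adjusted p = 0.773). It overlaps CG11562 on the opposite strand, which had 59.9 TPM against its own 76.6 TPM. GFP cells held 98.9 ± 3.26 CPM of U2af50, 84.4 ± 1.89 of U2af38 and 119 ± 5.74 of SF1. The counts of gene lists that follow are read against the 7.67% of all genes that rose and the 8.65% that fell. Of the 16 listed genes for 3′ splice site recognition and the U2 particle, 1 rose, 3 fell (SF1, Caper and hfp) and 12 did not pass. With 12 libraries fitted 5 fell, and on TPM without centring 2 rose and 2 fell. Their median log2 change was -0.12, against -0.01 over all genes tested.

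Of the 13 genes for SR proteins and their kinases 1 rose and 1 fell, with a median log2 change of 0.01. Without WT replicate 2 the number that rose was 2, and without d38 replicate 3 or WT replicate 3 the number that fell was 0. The counts were 7 that rose and 0 that fell on TPM without centring.

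Of 29 hnRNP and related regulators 4 rose, heph, mbl, ps and Psi, and 1 fell, qkr58E-3, with a median of 0.16. On TPM without centring 12 rose and 0 fell, with 12 libraries fitted 7 rose and 3 fell, and with the length trend removed 3 rose and 2 fell, with a median of 0.06. heph, the fly polypyrimidine tract-binding protein, rose from 7.75, 7.62 and 5.80 TPM to 10.2, 12.6 and 11.4 TPM (log2 change 0.50, adjusted p = 0.00166). Only 1 gene of this list rose without d38 replicate 2, without d38 replicate 3 or without WT replicate 3. The calls of mbl and ps were lost without each of these libraries, at 0.103 to 0.204 and 0.112 to 0.219. The qkr58E-3 call was lost without any d38 library or without WT replicate 1, at 0.0577 to 0.0898, and on TPM without centring its change was 0.013, in the opposite direction. Of 14 genes for the exon junction complex and nonsense-mediated decay 2 rose, Upf1 and nonC, and the number was 0 without d38 replicate 2, d38 replicate 3 or WT replicate 3 and 1 without WT replicate 1. With the length trend removed 0 rose, and on TPM without centring 4 rose.

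Of 79 genes for proteins of the cytosolic ribosome 51 fell and 0 rose, where 8.65% of all genes fell and 7.67% rose, with a median log2 change of -0.39. RpS27 was at 3690, 3833 and 3896 TPM in WT and 2909, 2860 and 2771 TPM in d38 (log2 change -0.63, SE 0.08, edgeR adjusted p = 1.07e-05). RpL15 fell from 4922 ± 180 to 4016 ± 33.4 TPM. The summed level of the list was 419400 to 451300 TPM in WT, 369700 to 381200 TPM in d38 and 421000 to 438900 TPM in GFP cells. These genes are short, with a median length of 646 nt, and the class of the shortest genes held 231 that fell and 65 that rose. With the length trend removed 47 fell, and on TPM without centring 21 fell. All 79 were called lower with 12 libraries or only the 6 libraries fitted. Without d38 replicate 2, d38 replicate 3 or WT replicate 3 the number was 31, 27 and 26. Of the 64 ribosomal protein genes tested for usage, 11 changed, against 8.28% of all genes tested, among them RpL28, where RpL28-RA rose from 94.5 ± 0.438% to 97.9 ± 0.0565%.

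Of 32 proteasome subunit genes 9 fell and 0 rose, with a median of -0.18. With 12 libraries fitted 25 fell and with only the 6 libraries 16. On TPM without centring 0 fell, and without d38 replicate 1, d38 replicate 2, d38 replicate 3 or WT replicate 3 the number was 5, 2, 1 and 0. Rpn10 had a log2 change of -0.21 (edgeR adjusted p = 0.00852, or 0.0515 without WT replicate 3). In Prosalpha5 isoform usage also changed, with Prosalpha5-RB falling from 6.54%, 9.75% and 10.6% to 0.92%, 1.68% and 1.68% (limma adjusted p = 2.67e-05).

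Antimicrobial peptide genes fell in 9 of 17 tested and rose in 0, with a median of -0.34. Mtk, which encodes the antifungal and antibacterial peptide metchnikowin, was at 116, 97.2 and 111 TPM in WT and 37.3, 44.6 and 35.5 TPM in d38 (log2 change -1.66, SE 0.16, edgeR adjusted p = 5.99e-07), close to the 36.3 ± 2.44 TPM of GFP cells. Dro (drosocin) fell from 762, 762 and 846 TPM to 554, 515 and 524 TPM, with 190 ± 10.7 TPM in GFP cells. Drs (drosomycin) fell from 302 ± 24.9 to 220 ± 13.3 TPM and AttD, an attacin, from 114 ± 2.02 to 85.5 ± 2.10 TPM. In all 4 genes the d38 and WT libraries did not overlap. The number that fell was 5 without d38 replicate 2 or d38 replicate 3, 4 without WT replicate 3, and 4 on TPM without centring. These genes are short as well, with a median length of 386 nt, and 7 fell with the length trend removed.

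In the IMD and Toll pathways, which control these peptides, 1 of 29 genes rose and 3 fell, and on TPM without centring 7 rose and 1 fell. PGRP-SA, a recognition protein upstream of Toll, was at 123, 126 and 126 TPM in WT and 75.8, 79.5 and 76.2 TPM in d38 (log2 change -0.87, SE 0.13, edgeR adjusted p = 6.35e-05), with 117 ± 2.83 TPM in GFP cells. Myd88, the Toll adaptor, rose from 11.2 ± 0.520 to 15.1 ± 0.666 TPM (log2 change 0.29, adjusted p = 0.0113).

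Both groups received the same copper, and of 11 genes for metallothioneins and copper handling 4 fell and 0 rose. The counts were 2 that fell and 3 that rose on TPM without centring. MtnE was at 91.9, 87.1 and 94.8 TPM in WT and 35.8, 43.5 and 42.7 TPM in d38 (log2 change -1.38, SE 0.16, edgeR adjusted p = 3.87e-06). MtnD fell from 161 ± 18.1 to 93.2 ± 5.07 TPM (log2 change -0.99, adjusted p = 2.95e-05). These proteins bind metals, and WT and d38 did not overlap in either gene. MtnA, the most abundant, had a log2 change of -0.39 (adjusted p = 0.00275), but on TPM without centring its change was -0.13 (limma adjusted p = 0.267). Atox1, a copper chaperone, had -0.26 (adjusted p = 0.012, or 0.0794 without d38 replicate 3).

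Of 32 genes for oxidative stress and glutathione 3 rose and 9 fell. On TPM without centring 6 rose and 2 fell, so the balance turned. The peroxiredoxins Prx6b and Prx6c rose, from 1.31, 1.15 and 2.75 TPM to 7.60, 7.81 and 7.30 TPM and from 1.61, 1.49 and 1.99 TPM to 6.79, 6.998 and 6.24 TPM (edgeR log2 changes 1.93 and 1.79, adjusted p = 0.000343 and 4.85e-06). GFP cells held 7.45 ± 0.421 and 6.40 ± 0.805 TPM, close to d38. The genes are paralogs between which reads could be split. The glutathione transferase GstD5 fell from 440 ± 34.7 to 268 ± 9.88 TPM (log2 change -0.89, adjusted p = 1.61e-05). The number that fell was 5 without d38 replicate 3 or WT replicate 3.

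Of 22 genes for extracellular matrix and adhesion 8 rose and 2 fell, where 7.67% of all genes rose and 8.65% fell. The integrin subunit if rose from 4.98, 5.31 and 3.95 TPM to 7.59, 8.14 and 8.31 TPM (edgeR log2 change 0.59, adjusted p = 9.11e-06). The other integrin subunits scb and Itgbn had log2 changes of 0.30 (adjusted p = 0.00219) and 0.37 (adjusted p = 0.00428), and in these 3 genes WT and d38 did not overlap in TPM. SPARC, a collagen-binding matrix protein, fell from 2261 ± 82.8 to 1864 ± 20.8 TPM (log2 change -0.44, adjusted p = 0.00582). These genes are long, with a median length of 4893 nt, and with the length trend removed 6 rose and 7 fell, so the balance of the list turned. Without d38 replicate 2, d38 replicate 3 or WT replicate 3 the number that rose was 5, 4 and 4.

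Among the markers of S2 cells Hml, a clotting protein, fell from 12.2, 12.5 and 9.33 TPM to 7.03, 8.31 and 8.85 TPM (edgeR log2 change -0.66, adjusted p = 0.000235), and the scavenger receptor Sr-CI fell from 6.98 ± 0.487 to 4.97 ± 0.0875 TPM. Of the 10 tested 2 rose, Pxn and Ppn, and 3 fell, among them the collagen gene Col4a1. The Pxn call (adjusted p = 0.0338) was lost when any 1 library was left out, at 0.0642 to 0.105, the Ppn call (0.00756) without d38 replicate 3, at 0.0534, and without WT replicate 3 the number that fell was 5. With 12 libraries fitted 2 rose and 6 fell, and on TPM without centring 3 rose and 2 fell. With the length trend removed 0 rose and 6 fell, and the log2 changes of Pxn and Ppn were 0.19 and 0.09 (adjusted p = 0.268 and 0.514). Fewer cells of a kind and less RNA per cell cannot be told apart in bulk RNA.

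Of 23 heat shock and chaperone genes 2 rose, Hsp67Ba and stv, and 0 fell, while on TPM without centring 9 rose. The stv call was lost without d38 replicate 3, WT replicate 2 or WT replicate 3, at an adjusted p of 0.0551 to 0.0924. Of 33 cell cycle genes 1 rose, dap, and 2 fell, stg and RnrL. With TPM and no centring 17 rose and 0 fell. The number that rose was 0 without any 1 d38 library or WT replicate 3, and the number that fell was 1 without d38 replicate 3 or WT replicate 1. Of 15 cell death genes 2 rose, Strica and Debcl, and 3 fell, p53, hid and Drice. On TPM without centring 4 rose and 1 fell, and with 12 libraries fitted 3 rose and 6 fell. There 1 rose without any 1 d38 library or WT replicate 3, and 1 fell when any 1 library other than WT replicate 3 was left out. Without centring Drice had a change of 0.018, in the opposite direction. Strica overlaps Pngl on the opposite strand, which had 71.4 TPM against its own 53.8 TPM. Of 13 testis genes that passed the filter 2 rose, bam and achi (1 without d38 replicate 1, and 5 on TPM without centring), and 24 of the 34 listed were below 1 TPM. bam, a germline differentiation gene, was at 0.725, 0.743 and 0.748 TPM in WT and 1.69, 1.53 and 1.28 TPM in d38 (log2 change 0.84, adjusted p = 0.000871).

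**Figure D5:**
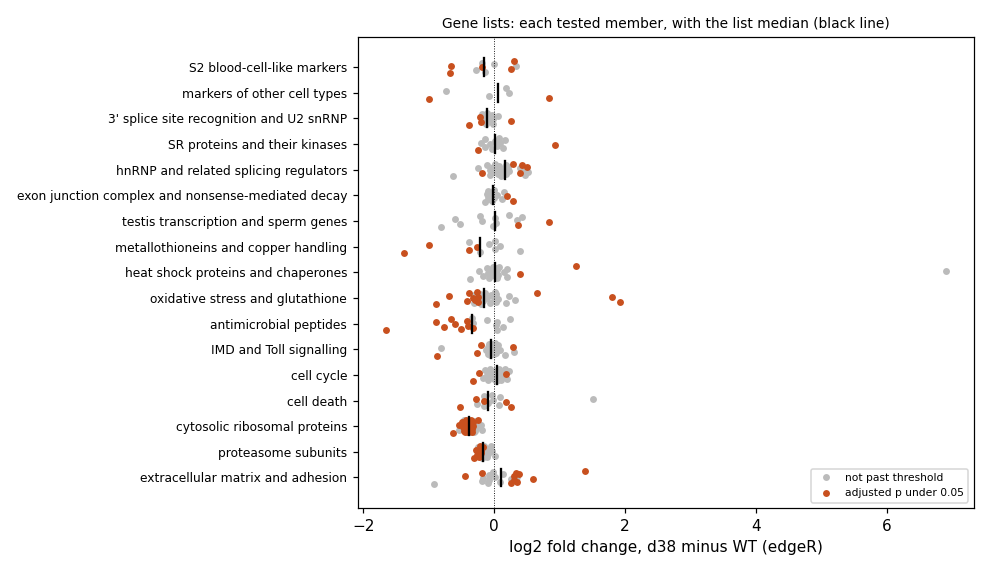
edgeR log2 fold change (d38 minus WT, horizontal axis) of every tested member of 17 gene lists. Coloured points passed an adjusted p of 0.05, grey points did not, and black lines are list medians. Ribosomal protein genes lie below 0 with a median of -0.39. The grey point at 6.89 is Hsp70Ab, with reads in d38 replicate 2 and an adjusted p of 0.328.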

How the data were processed

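The authors deposited 1 table of 30594 transcripts per library. Per the file headers, it gives estimated counts (not whole numbers, not scaled between libraries), TPM values and effective lengths. The submitters' processing notes name STAR, kallisto, dm6 and BDGP6. Their roles, versions and strand setting are not given in the sources used here. Here, 30242 of them (98.8%) were found by identifier in the Ensembl release 115 annotation of BDGP6. The 352 others were left out of gene analyses.

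The deposited estimated counts were summed per gene, rounded and tested with edgeR 4.0.16 (R 4.3.3; quasi-likelihood test, TMM, count minimum 10, 21 libraries with 1 mean per group, 14 residual degrees of freedom). SE is the log2 change over the square root of F. Shares were computed from the deposited TPM and tested as log-odds, with 0.01 added to each side, in limma 3.58.1, and for usage the isoforms of a gene were combined by Simes' method. An event needed a mean of 50 counts and a mean share of 0.02 to 0.98. Benjamini-Hochberg adjustment ran over all genes or events tested, with a threshold of 0.05. The tests were checked on simulated counts. The expression test recovered 98% of 2-fold changes, with 4.85% of calls false. With a 3-fold change of 1 isoform the event test recovered 38.5% of changed events, with 4.96% of calls false. Counts were drawn for each isoform separately, so errors in assigning reads between isoforms were not simulated. CPM is the TMM-scaled count relative to the library total.

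Named genes had the largest changes among those called, with WT and d38 not overlapping: 10 expression genes each way with a mean of 100 counts, and 12 usage genes (called by limma and edgeR's F test) and 8 3′ splice site and 4 other events per class with 500 counts. List members named had the smallest adjusted p. The members and lists were chosen with earlier results of these data known. Genes or isoforms named outside these rules were chosen after their values were seen. Some items that met these rules are not reported here.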

Additional observations from a re-analysis of the deposited data

Results flagged for a closer look

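The 352 transcripts that the annotation could not place in a gene were used in no comparison. Their summed level was 22810 to 23662 TPM in the d38 libraries, above the 13589 to 19866 TPM of WT and the 10876 to 13533 TPM of GFP cells. It was noted because it is a signal in data outside the main measurement that lies above the control samples. Since TPM has a fixed sum, this difference also enters the TPM of all other genes. Its part in the results was not tested.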

How the results depend on the processing

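Of 76 expression genes, 12 usage genes and 28 events named or listed, 50, 3 and 17 kept their direction and their side of the threshold under every alternative run. Expression calls numbered 2338 with 12 libraries fitted, 2817 with limma on log2(TPM + 1), and 874 to 1236 with 1 library left out. Usage calls numbered 200 with 6 libraries fitted, 141 with edgeR's Simes test, and 212 to 306 with 1 library left out. Event calls numbered 110 with 6 libraries fitted and 212 to 294 with 1 library left out. The LS2 difference was -0.18 on CPM and -0.05 to 0.02 with 1 library left out. The causes were not tested. On TPM without centring Drice (0.018, limma adjusted p = 0.84) and qkr58E-3 (0.013, adjusted p = 0.88) turned their direction. d38 and WT libraries share only a number: their deviations from the group means correlated at -0.11, -0.06 and -0.13 for replicates 1, 2 and 3, and no library correlated best with its own number. With a replicate block 1360 genes were called for expression, 330 for usage and 312 events, the LS2 difference was -0.02, and the CCT3 (adjusted p = 0.052) and nonC (0.0589) calls were lost.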
